A study of Mus musculus with 9 samples.

Results

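Adult neurogenesis in the mouse forebrain was followed through 9 genes: Dcx, Sox11, Dlx1, Dlx2, Sp8, Sox2, Mki67, Top2a and Cd24a. The members were taken as the probe sets whose only gene symbol in the platform annotation was one of these. There were 10 such probe sets of 21780 with 1 symbol. Top2a had a pair of them and every other gene had 1. Each gene had a probe set above the filter on low values, a mean log2 intensity over all arrays of at least 5.89, so 9 of 9 genes were tested among 16335 probe sets. Top2a, Sp8 and Mki67 had low mean levels, at the 9.54th, 13.4th and 13.9th percentiles of the tested probe sets. The lowest single values of Sp8 (5.73) and Top2a (5.74) lay below 5.89. The second Top2a probe set lay between 4.35 and 4.46 on every array, below that filter, and was not used. Probe sets annotated to Top2a together with a second gene were left out.

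Striatal RNA of mice was hybridised to 9 Affymetrix arrays with a single label, 3 in each of 3 groups. Controls received saline 4 times at intervals of 2 h and were sampled 1 week later. The acute MPTP group received 20 mg/kg of MPTP 4 times at intervals of 2 h intraperitoneally, 80 mg/kg in total, and was sampled 1 week later. The chronic MPTP group received 4 mg/kg once a day for 20 days, also 80 mg/kg in total, and was sampled after 8 weeks. The regimen and the time of sampling of the chronic group thus both set it apart from the other groups. Strain, age and sex are not given in the sources used here, and no label says that every array holds the RNA of its own animal. A p-value here therefore reflects only how far these samples spread, and that spread may be technical.

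The lateral ventricle borders the striatum, and its wall carries the ventricular-subventricular zone, the main site of neurogenesis in the adult rodent forebrain. Stem cells there give rise to dividing transit-amplifying progenitors, which form neuroblasts that migrate along the rostral migratory stream and become interneurons of the olfactory bulb. MPTP is a neurotoxin whose metabolite enters dopamine neurons and inhibits respiratory complex I, and dopamine fibres of the striatum also reach this zone. Sox2 encodes a transcription factor of neural stem cells that is also expressed in astrocytes and ependymal cells. Mki67 and Top2a, for the nuclear antigen Ki-67 and DNA topoisomerase II alpha, mark dividing cells of any type. Dlx1, Dlx2 and Sp8 encode transcription factors of the interneuron lineage, Sox11 and the microtubule-binding protein doublecortin (Dcx) are typical of neuroblasts, and Cd24a encodes a surface glycoprotein of neuroblasts and of the ependymal cells that line the ventricle.

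Promoters are shown for 4 members: Mki67 and Top2a, whose values ran together on the arrays as described below, and Dcx and Sp8, the members whose windows held the core sequence bound by homeodomain proteins such as those of Dlx1 and Dlx2. RefSeq promoters on build GRCm38.p6, from 250 bases before to 50 after the start, were found for 8 of the 9 genes. In the first pair the capitals mark CCAAT boxes (CCAAT or, on the other strand, ATTGG) and the cell cycle homology element (TTTGAA or TTCAAA), both known from genes transcribed in G2 and M phase. The Mki67 window lies at chr7:135716330-135716629 and the Top2a window at chr11:99024140-99024439, each on the minus strand.
Mki67: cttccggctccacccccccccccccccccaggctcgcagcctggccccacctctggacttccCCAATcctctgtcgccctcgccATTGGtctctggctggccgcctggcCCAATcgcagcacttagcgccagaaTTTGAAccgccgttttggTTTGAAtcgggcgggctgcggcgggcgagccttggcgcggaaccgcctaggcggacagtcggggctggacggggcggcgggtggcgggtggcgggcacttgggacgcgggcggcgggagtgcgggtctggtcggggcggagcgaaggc
Top2a: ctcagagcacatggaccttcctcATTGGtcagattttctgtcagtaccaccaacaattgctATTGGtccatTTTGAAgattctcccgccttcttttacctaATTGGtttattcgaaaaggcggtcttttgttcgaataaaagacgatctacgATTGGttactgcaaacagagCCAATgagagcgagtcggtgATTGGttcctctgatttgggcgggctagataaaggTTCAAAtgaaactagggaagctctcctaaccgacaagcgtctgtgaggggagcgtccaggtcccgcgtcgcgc
Mki67 held 3 CCAAT boxes and Top2a 6, and each held 2 TTTGAA elements, where no window of another member held more than 1 of either. Of 32851 promoter windows of this length, 37.4% held a CCAAT box, 17.9% a TTTGAA element, and 26 (0.0791%) held at least 3 of the first and 2 of the second. Those minimums equal the counts of Mki67 itself, so that share is not an independent background. At least 2 CCAAT boxes occurred in 11.7% of windows and at least 2 TTTGAA elements in 2.31%. In the second pair the capitals mark TAATTA, a core sequence bound by many homeodomain proteins, which reads the same on both strands. The Dcx window lies on the minus strand at chrX:143933170-143933469, and the Sp8 window, the last of 3 listed for that gene, on the plus strand at chr12:118847309-118847608.
Dcx: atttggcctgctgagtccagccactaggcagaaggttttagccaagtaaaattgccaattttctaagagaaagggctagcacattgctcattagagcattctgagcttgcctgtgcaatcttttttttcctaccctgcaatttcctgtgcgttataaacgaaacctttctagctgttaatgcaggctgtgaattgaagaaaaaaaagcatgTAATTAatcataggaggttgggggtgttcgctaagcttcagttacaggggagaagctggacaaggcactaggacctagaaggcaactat
Sp8: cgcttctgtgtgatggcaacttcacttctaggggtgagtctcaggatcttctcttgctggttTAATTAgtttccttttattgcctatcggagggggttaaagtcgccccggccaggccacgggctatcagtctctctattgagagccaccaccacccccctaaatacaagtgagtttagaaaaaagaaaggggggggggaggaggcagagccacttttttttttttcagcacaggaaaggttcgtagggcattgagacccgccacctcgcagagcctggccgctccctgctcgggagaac
TAATTA occurred once in each and in 5.29% of all windows. It occurred in neither of the other two Sp8 windows nor in those of Dlx1 and Dlx2, and the other Dcx window overlaps the one shown. A match of letters describes the window and not a bound site. A further pair of motifs was searched on both strands: TTTCCCGC or TTTGGCGC, letters typical of E2F sites, occurred in 0 of the 11 windows listed for members, and ACAAAG, a SOX core, occurred once each in the Sox2 window and in the second Dcx window.

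The arrays differed in the tissue they carried. The label striatum was borne out by its defining markers: Drd1, a dopamine receptor of striatal projection neurons, lay between 10.01 and 11.12 and Drd2, the other main receptor of these neurons, between 10.88 and 12.01. Tbr1, of cortical neurons, lay between 9.12 and 9.89 on control 1, acute 1 and acute 2 and between 5.69 and 7.27 elsewhere. Ttr, of choroid plexus, the secretory tissue inside the ventricle, lay at 12.56 on control 3 and 13.37 on acute 3 and between 6.19 and 10.85 elsewhere. Slc17a6, of glutamatergic neurons of the thalamus, lay at 10.59 on control 3 and 9.43 on acute 3 and between 6.42 and 8.51 elsewhere. Gene lists are given below as the mean deviation of their genes from each gene's own mean over the 9 arrays, on the log2 scale.

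No member differed between groups past the threshold. In acute MPTP against control all 9 members had lower means after MPTP, with a median difference of -0.24 on the log2 scale against 0.0036 over all probe sets tested, of which 48.4% were lower. The 9 members moved together from array to array and are not 9 independent observations. None had groups that did not overlap, where 3.56% of all probe sets did, and 0 passed an adjusted p of 0.05 in limma (Benjamini-Hochberg over 16335 probe sets, smallest adjusted p among members 1), as did 0% of all. At an unadjusted p under 0.05 there were also 0 members, against 0.851% of all probe sets. The median rested on acute 1: without that array it was 0.012, and 6 of the 9 differences lay above 0.

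**Figure D1:**
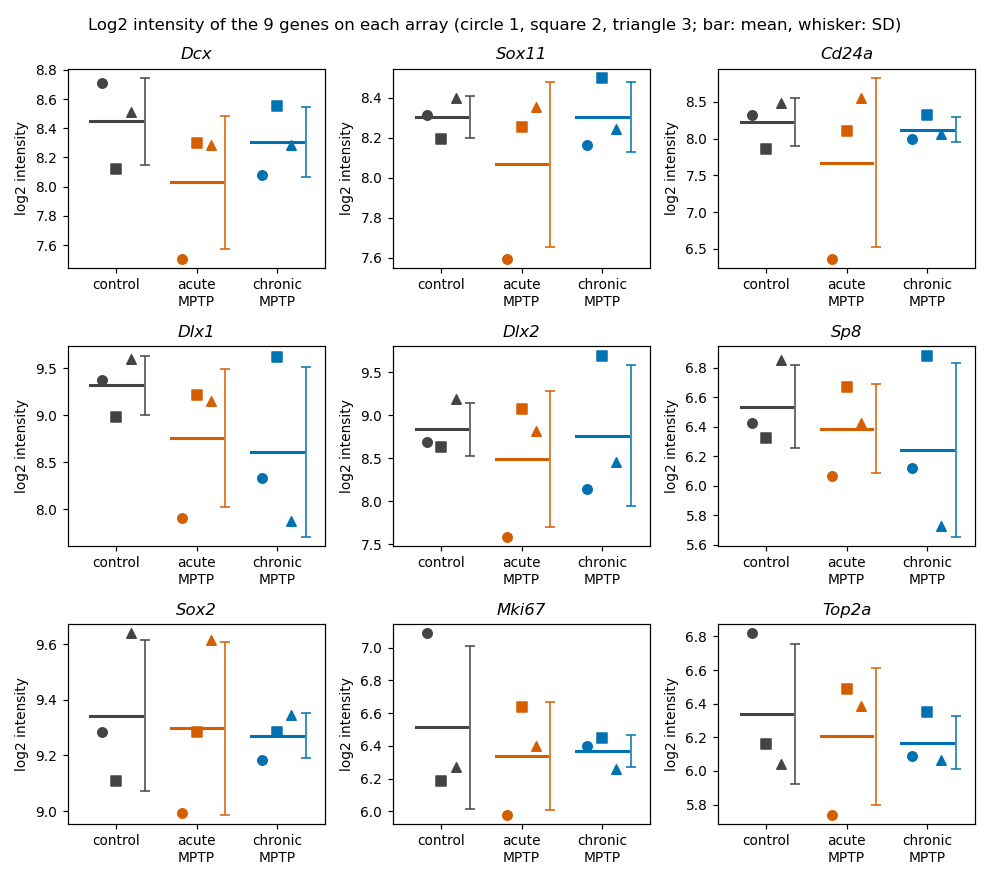
Log2 intensity of each gene (vertical axis, own scale in each panel) on the 3 arrays of each group (horizontal axis; circle, square and triangle are arrays 1, 2 and 3). Horizontal bars are group means and whiskers are SD (n = 3). Acute 1 is the lowest of the 9 arrays for 7 of the 9 genes, and chronic 3 is the lowest for Dlx1 and Sp8.

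Dcx, Sox11 and Cd24a were lowest on acute 1. Dcx (probe set 10607156) lay at 8.71, 8.12 and 8.51 in controls 1, 2 and 3, at 7.51, 8.30 and 8.28 after acute MPTP and at 8.08, 8.56 and 8.28 after chronic MPTP. Acute 1 was the lowest of all 9 arrays, 0.57 below the next, and the groups overlapped. The Dcx difference was -0.42 ± 0.24 (standard error, n = 3 per group) for acute against control, with a 95% interval of -0.95 to 0.12, and -0.16 without acute 1. It was -0.14 ± 0.24 for chronic against control (-0.67 to 0.39) and 0.28 ± 0.24 for chronic against acute (-0.26 to 0.81).

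Sox11 (10399725), which acts in the maturation of young neurons, lay at 8.32, 8.20 and 8.40 in controls, 7.60, 8.25 and 8.36 after acute MPTP and 8.16, 8.50 and 8.24 after chronic MPTP. Apart from acute 1 its values stayed between 8.16 and 8.50. The difference was -0.24 ± 0.19 for acute against control (-0.66 to 0.19), -0.0012 ± 0.19 for chronic against control (-0.43 to 0.42) and 0.24 ± 0.19 for chronic against acute (-0.19 to 0.66). Without acute 1 the first of these was -0.00024 and the last -0.00096.

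Cd24a (10362896) had the widest range of the members. It lay at 8.33, 7.85 and 8.49 in controls, 6.37, 8.10 and 8.55 after acute MPTP and 7.99, 8.32 and 8.06 after chronic MPTP. Acute 3 was the highest and acute 1 the lowest of all arrays, a range of 4.55-fold within the acute group, and acute 1 lay 1.49 below the next array. The group means were 8.22 ± 0.33 (SD, n = 3), 7.68 ± 1.15 and 8.12 ± 0.17. The differences of -0.55 ± 0.47 (-1.60 to 0.51) for acute against control and 0.45 ± 0.47 (-0.61 to 1.50) for chronic against acute became 0.11 and -0.21 without acute 1. Chronic against control was -0.10 ± 0.47 (-1.16 to 0.95).

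The lineage transcription factors Dlx1, Dlx2 and Sp8 were low on acute 1 and also on chronic arrays. Dlx1 (10472809) lay at 9.38, 8.98 and 9.60 in controls, 7.91, 9.22 and 9.15 after acute MPTP and 8.34, 9.61 and 7.88 after chronic MPTP. Chronic 2 was the highest and chronic 3 the lowest of the 9 arrays, a range of 3.33-fold within 1 group. The chronic mean was 8.61 ± 0.90 (SD, n = 3) against 9.32 ± 0.31 in controls, a difference of -0.71 ± 0.46 (-1.75 to 0.34) with an unadjusted p of 0.16 and an adjusted p of 0.953 in limma, the smallest of the members in that comparison. Without chronic 2 it was -1.21 and without chronic 3 -0.34. Acute against control gave -0.56 ± 0.46 (-1.61 to 0.49), or -0.14 without acute 1, and chronic against acute -0.15 ± 0.46 (-1.20 to 0.90), or -0.57 without acute 1.

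Dlx2 (10483626), encoded next to Dlx1 with only the antisense gene Dlx1as between them in the RefSeq gene order, lay at 8.69, 8.63 and 9.19 in controls, 7.59, 9.07 and 8.81 after acute MPTP and 8.14, 9.69 and 8.45 after chronic MPTP. The highest and the lowest array were chronic 2 and acute 1, 4.29-fold apart. Differences were -0.34 ± 0.46 (-1.37 to 0.69) for acute against control, -0.072 ± 0.46 (-1.10 to 0.96) for chronic against control and 0.27 ± 0.46 (-0.76 to 1.30) for chronic against acute. Without acute 1 the first was 0.11 and the last -0.18, and without chronic 1 and chronic 2 the second was 0.24 and -0.54.

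Sp8 (10399189) lay at 6.42, 6.33 and 6.85 in controls, 6.07, 6.67 and 6.42 after acute MPTP and 6.12, 6.88 and 5.73 after chronic MPTP. As with Dlx1, the chronic arrays held both extremes. The differences were -0.15 ± 0.28 (-0.79 to 0.49), -0.29 ± 0.28 (-0.93 to 0.35) and -0.14 ± 0.28 (-0.78 to 0.49) for acute against control, chronic against control and chronic against acute. Without chronic 2 the second was -0.61, without chronic 3 it was -0.033, and without acute 1 the first was 0.012.

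The stem cell factor Sox2 (10491477) varied least among the members. It lay at 9.28, 9.11 and 9.64 in controls, 8.99, 9.28 and 9.61 after acute MPTP and 9.18, 9.28 and 9.35 after chronic MPTP. Control 3 and acute 3, the 2 arrays high in Ttr and in Slc17a6, were the highest. The mean of 15 thalamus and septum genes was 1.28 on control 3, 0.69 on acute 3 and at most 0.077 on the other arrays, and its part in the Sox2 values was not tested. The group means were 9.34 ± 0.27, 9.30 ± 0.31 and 9.27 ± 0.082 (SD, n = 3), with differences of -0.046 ± 0.17 (-0.44 to 0.35) for acute against control, -0.072 ± 0.17 (-0.46 to 0.32) for chronic against control and -0.026 ± 0.17 (-0.42 to 0.37) for chronic against acute.

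The proliferation genes were highest on control 1. Mki67 (10568714) lay at 7.09, 6.19 and 6.27 in controls, 5.98, 6.63 and 6.40 after acute MPTP and 6.40, 6.45 and 6.26 after chronic MPTP. Top2a (10390707), which untangles replicated chromosomes, lay at 6.82, 6.16 and 6.04 in controls, 5.74, 6.49 and 6.39 after acute MPTP and 6.09, 6.35 and 6.07 after chronic MPTP. For both genes control 1 was the highest array, acute 2 the second highest and acute 1 the lowest. Mki67 differed by -0.18 ± 0.24 (-0.72 to 0.37) for acute against control and -0.15 ± 0.24 (-0.69 to 0.40) for chronic against control, which were 0.11 and 0.14 without control 1. Top2a differed by -0.14 ± 0.24 (-0.68 to 0.41) and -0.17 ± 0.24 (-0.71 to 0.37), or 0.10 and 0.067 without control 1. Chronic against acute gave 0.031 ± 0.24 (-0.51 to 0.57) for Mki67 and -0.036 ± 0.24 (-0.58 to 0.50) for Top2a.

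**Figure D2:**
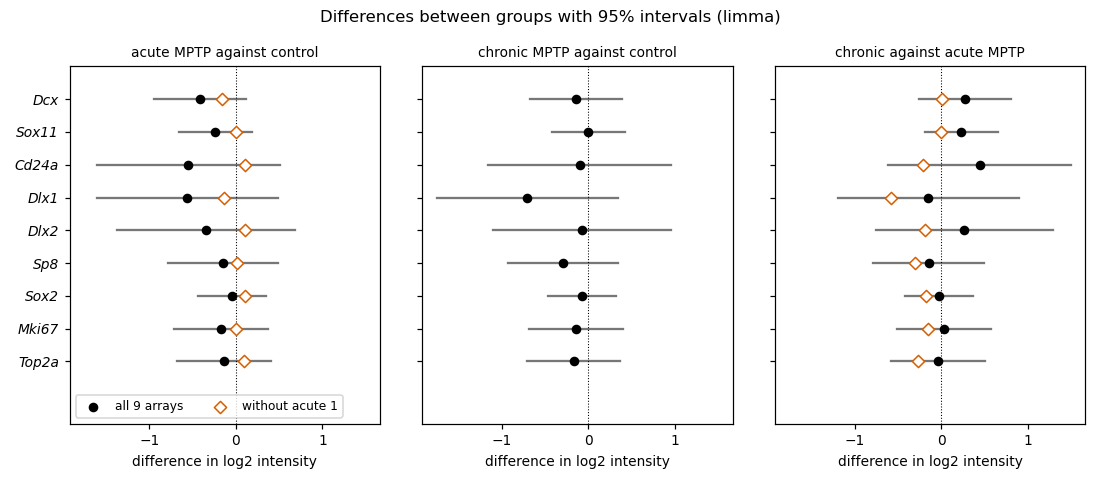
Differences in log2 intensity (horizontal axis) of each gene (vertical axis) in the 3 comparisons, with 95% intervals from limma (filled points, all 9 arrays) and the difference of means without acute 1 (open diamonds). Every interval spans 0, and in acute against control the open diamonds lie between -0.16 and 0.11.

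In chronic MPTP against control all 9 members again had lower means, although Sox11 turned to 0.00787 under quantile normalization and 0.017 with array medians set equal, with a median of -0.14 against -0.011 over all probe sets, of which 53.2% were lower; both comparisons share the control arrays. In limma 0 members passed an adjusted p of 0.05 and 0 an unadjusted p under 0.05, where 0% and 5.51% of all probe sets did, and 0 members had groups that did not overlap, against 6.55%. Other lists also had mostly lower means here: choroid plexus 11 of 12 genes, thalamus and septum 13 of 15, cortex 10 of 13. The 14 striatal projection neuron genes were all higher, as were 10 of 14 microglial and endothelial genes. In acute against control the striatal genes were all higher too, but so were 10 of 12 choroid plexus and 10 of 13 cortical genes. The part of the tissue on each array in the member differences was not tested further. In chronic against acute MPTP 5 members had higher and 4 lower means (6 and 3 under quantile normalization, where Top2a turned to 0.00997), with a median of 0.031 against -0.014 over all, of which 46.1% were higher. There 0 members passed an adjusted p of 0.05 (smallest adjusted p 0.878 in limma) against 0.0122% of all probe sets, 0 passed at an unadjusted p under 0.05 against 5.12%, and 0 had groups without overlap against 8.63%. The split of members in chronic against acute rested on acute 1. Without that array only Dcx (0.016) lay above 0, and the member median was -0.18.

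The spread between arrays of one group was large for these genes. The pooled within-group SD was 0.70 for Cd24a, 0.69 for Dlx1 and 0.68 for Dlx2, each at the 99.4th percentile of all tested probe sets, and 0.42 for Sp8, at the 96.3rd. Mki67, Top2a and Dcx followed at 0.35, 0.35 and 0.34, so that 7 of 9 members lay above the 90th percentile. Sox11 (0.27) and Sox2 (0.24) lay at the 83.9th and 79.2nd. The median was 0.35 over the members and 0.16 over all tested probe sets. The groups accounted for between 2.23% (Sox2) and 27.8% (Dcx) of a member's sum of squares over the 9 arrays, with a median of 19.1% over all probe sets.

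Acute 1 was the array on which most members were lowest, 7 of 9, and every member lay below its own mean there, with deviations from -1.64 to -0.31. Over all tested probe sets acute 1 was lowest for 10.9%. It was lowest for 2 of the 19 other neuroblast genes listed below, 5 of 15 stem cell and transit-amplifying genes and 4 of 24 other cell cycle genes. The mean of the neuroblast list was -0.17 on acute 1, -0.20 on chronic 1 and -0.16 on chronic 3. The 17 tested genes of ciliated ependymal cells had acute 1 as their lowest array in 14 cases. Among them Rsph4a, of the ciliary radial spoke, lay at 6.40 on acute 1 and between 7.21 and 8.71 elsewhere. Foxj1, the master transcription factor of motile cilia, ran only from 7.33 to 7.89 and was lowest on chronic 3, with acute 1 next at 7.41. The mean of the ependymal list was -0.52 on acute 1 and between -0.16 and 0.37 on the other arrays. It ran from -0.075 to 0.37 in the control group, -0.52 to 0.30 in the acute group and -0.16 to 0.16 in the chronic group. With that mean as a covariate, an alternative added after the data were seen, the acute against control difference was -0.25 for Cd24a, -0.12 for Sox11, -0.30 for Dlx1, -0.071 for Dlx2 and -0.29 for Dcx. Sox2 turned to 0.054, while Sp8, Mki67 and Top2a remained lower. The part of ventricle wall tissue in the members' differences was not tested further, and in whole tissue fewer cells of a type cannot be told apart from less RNA per cell.

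**Figure D3:**
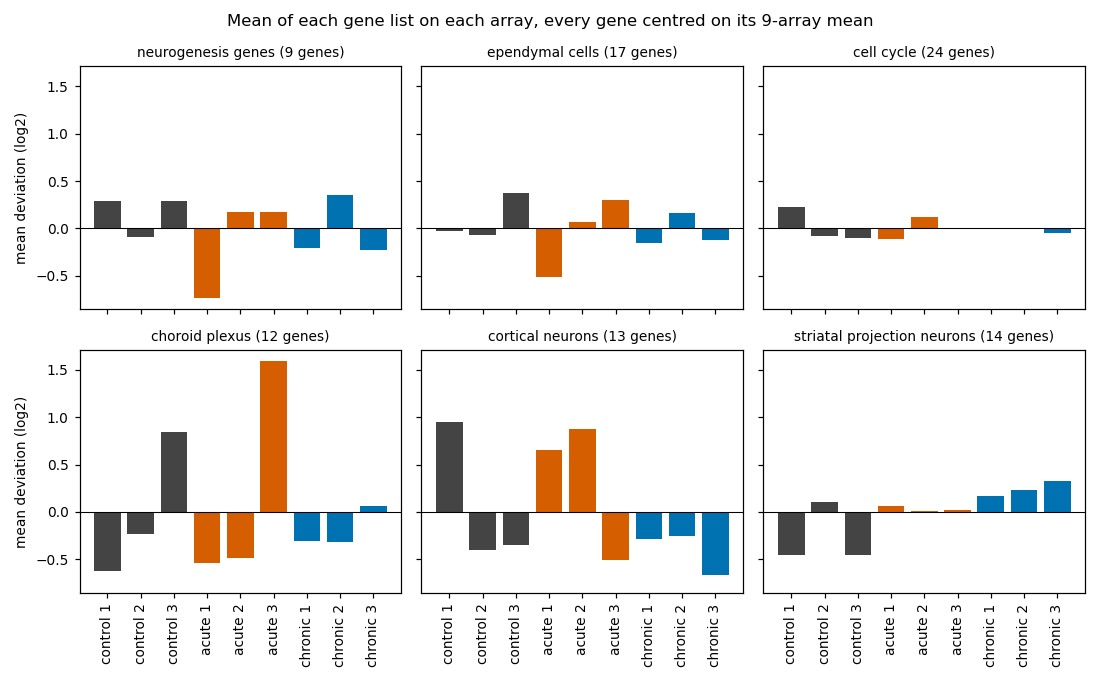
Mean deviation of each gene list (log2, vertical axis) on each array (horizontal axis), with bars coloured by group: grey control, orange acute MPTP, blue chronic MPTP. The neurogenesis genes reach -0.74 and the ependymal genes -0.52 on acute 1, while the choroid plexus genes stand high on control 3 and acute 3 and the cortical genes on control 1, acute 1 and acute 2.

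The members ran together over the arrays. They are described in 3 sets, picked after the correlations were seen, and pairs across the first and second set passed as well. Relations were computed in a family of 56: all 36 pairs of members and the members against list means that hold no member. Of these, 12 had been laid down in the plan (Dcx against each other member, and Dcx and Cd24a against the ependymal and choroid plexus means), and the rest were added after the data were seen. Every p is from an exact two-sided permutation test over 362880 pairings, adjusted over the family, and treats the 9 arrays as exchangeable, although arrays of the same replicate number deviated together. Values of r for deviations from the means of each replicate number are given as a description, with no p. Pearson's r was above 0 in 36 of 36 pairs, from 0.19 to 0.97 with a median of 0.64, and 14 pairs passed. The share of pairs of other probe sets that would pass was not computed, so that count has no background. The r with a member that the top 1% of all tested probe sets reached lay between 0.65 (Top2a) and 0.86 (Dlx2). Without acute 1 the median was 0.52 and 34 of the 36 pairs were above 0.

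In the first set Sox11 and Cd24a had r = 0.97 over the 9 arrays (exact permutation p = 0.00145, adjusted 0.0102; Spearman's rho = 0.87, exact permutation p = 0.00451, adjusted 0.0217). Without the 2 arrays farthest from the median of Sox11, acute 1 and chronic 2, r was 0.94, and it was 0.96 for deviations from the group means and 0.97 for deviations from the means of each replicate number. Dcx and Sox11 had r = 0.91 (exact permutation p = 0.00266, adjusted 0.0124; rho = 0.85, p = 0.00621, adjusted 0.0217) and r = 0.93 without acute 1 and control 1. Dcx and Cd24a had r = 0.89 (exact permutation p = 0.00536, adjusted 0.0214; rho = 0.73, p = 0.0313, adjusted 0.0701) and 0.69 without those 2 arrays. Without acute 1 alone, r fell to 0.77 for Sox11 and Cd24a, 0.73 for Dcx and Sox11 and 0.64 for Dcx and Cd24a.

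In the second set Dlx1 and Sp8 had r = 0.93 (exact permutation p = 0.000187, adjusted 0.00413; rho = 0.97, p = 8.82e-05, adjusted 0.00494), and 0.89 without chronic 3 and acute 1. Dlx1 and Dlx2 had r = 0.85 (exact permutation p = 0.00182, adjusted 0.0102; rho = 0.90, p = 0.00203, adjusted 0.0162), and 0.87 without the same 2 arrays. Dlx2 was as near to the first set: with Sox11 it had r = 0.88 (exact permutation p = 0.00038, adjusted 0.00426; rho = 0.93, p = 0.00075, adjusted 0.0105), and 0.74 without acute 1 and chronic 2. All pairs of Dcx, Sox11 or Cd24a with Dlx1 or Dlx2 passed on r, from 0.68 to 0.88 (exact permutation, adjusted p from 0.00426 to 0.0463). On rho the pairs of Cd24a with Dlx1 (0.67, exact permutation, adjusted p = 0.122) and Dlx2 (0.73, adjusted 0.0701) did not pass. Dcx and Sp8 had r = 0.54 (exact permutation p = 0.133, adjusted 0.219; rho = 0.74, p = 0.0279, adjusted 0.0679), and 0.68 without acute 1 and control 1. Sox11 and Sp8 had r = 0.56 (exact permutation p = 0.115, adjusted 0.201; rho = 0.85, p = 0.00621, adjusted 0.0217). Cd24a and Sp8 had r = 0.47 (exact permutation p = 0.215, adjusted 0.294; rho = 0.65, p = 0.0631, adjusted 0.126). Chronic 3, where Dlx1 and Sp8 were lowest, had Dcx at 8.28, its median over the arrays. Whether the correlations differ from each other was not tested.

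In the third set Mki67 and Top2a had r = 0.94 (exact permutation p = 0.000259, adjusted 0.00413; rho = 0.85, p = 0.00621, adjusted 0.0217), and 0.80 without control 1 and acute 1. Both followed the mean of 24 other cell cycle genes, Mki67 with r = 0.97 (exact permutation p = 5.51e-05, adjusted 0.00309; rho = 0.95, p = 0.000375, adjusted 0.007) and Top2a with r = 0.91 (exact permutation p = 0.000295, adjusted 0.00413; rho = 0.88, p = 0.00308, adjusted 0.0191). Without control 1 and acute 2, the 2 farthest arrays in that mean, r was 0.88 and 0.76. Control 1 was the highest array for 12 of these 24 genes and for 11.3% of all tested probe sets. Sox2 had r = 0.19 with Mki67 (exact permutation p = 0.629, adjusted 0.641; rho = 0.30, p = 0.433, adjusted 0.458), and 0.62 without control 3 and acute 3. For deviations from the means of each replicate number the r of Sox2 and Mki67 was 0.72, so the low value did not hold with that pairing taken out. Sox2 and Cd24a, of the first set, had r = 0.77 (exact permutation p = 0.00175, adjusted 0.0102; rho = 0.86, p = 0.00446, adjusted 0.0217), and 0.85 without control 3 and acute 3.

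**Figure D4:**
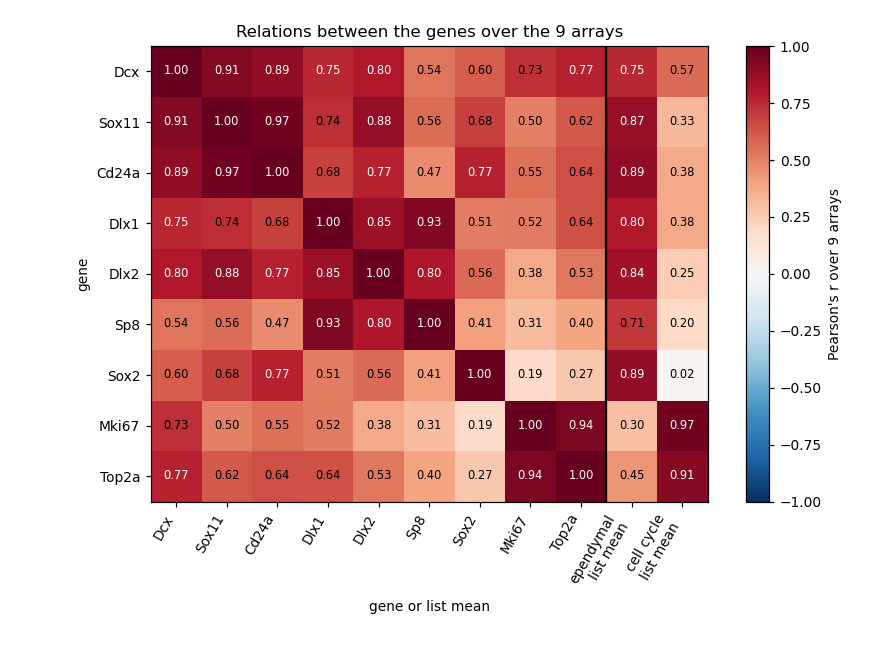
Pearson's r over the 9 arrays between each gene (rows) and each gene or list mean (columns, the list means to the right of the black line). Dark blocks hold Dcx, Sox11 and Cd24a, then Dlx1, Dlx2 and Sp8, then Mki67 and Top2a with the cell cycle mean. Cells outside these blocks are dark too, among them Dlx2 against Sox11 (0.88), Dcx (0.80) and Cd24a (0.77), and Sox2 against Cd24a (0.77).

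Against the ependymal mean Cd24a had r = 0.89 (exact permutation p = 0.000532, adjusted 0.00496; rho = 0.88, p = 0.00308, adjusted 0.0191), with 0.82 without acute 1 and control 3 and 0.85 without acute 1 alone. Sox2 also had r = 0.89 (exact permutation p = 0.00146, adjusted 0.0102; rho = 0.78, p = 0.0168, adjusted 0.0469) and 0.75 without those 2 arrays. Sox11 had r = 0.87 (exact permutation p = 0.00219, adjusted 0.0111; rho = 0.92, p = 0.00131, adjusted 0.0122) and 0.74 without them. Dlx2 had r = 0.84 (exact permutation p = 0.00639, adjusted 0.0224; rho = 0.92, p = 0.00131, adjusted 0.0122) and 0.68 without them. Dlx1 had r = 0.80 (exact permutation p = 0.00607, adjusted 0.0224; rho = 0.80, p = 0.0138, adjusted 0.0408) and 0.66 without them. These genes thus followed the ependymal mean as well, and Sp8 had r = 0.71 (exact permutation p = 0.0326, adjusted 0.0731; rho = 0.85, p = 0.00621, adjusted 0.0217) and 0.65 without them. For Dcx r was 0.75 (exact permutation p = 0.0226, adjusted 0.055; rho = 0.69, p = 0.0438, adjusted 0.0944) and fell to 0.31 without them, so that relation rested on those arrays. Mki67 had r = 0.30 (exact permutation p = 0.415, adjusted 0.474; rho = 0.44, p = 0.242, adjusted 0.325), and 0.078 without them. Top2a had r = 0.45 (exact permutation p = 0.226, adjusted 0.301; rho = 0.37, p = 0.336, adjusted 0.369) and 0.37 without them. With the means of each replicate number taken out, r with the ependymal mean was 0.67 for Mki67 and 0.66 for Top2a, against 0.76 for Dcx, 0.84 for Cd24a and 0.98 for Sox2. Against the choroid plexus mean r was 0.17 for Dcx (exact permutation p = 0.618, adjusted 0.641; rho = -0.13, p = 0.732, adjusted 0.751) and 0.48 for Cd24a (exact permutation p = 0.162, adjusted 0.227; rho = 0.38, p = 0.313, adjusted 0.365), or 0.022 and 0.24 without acute 3 and control 3.

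**Figure D5:**
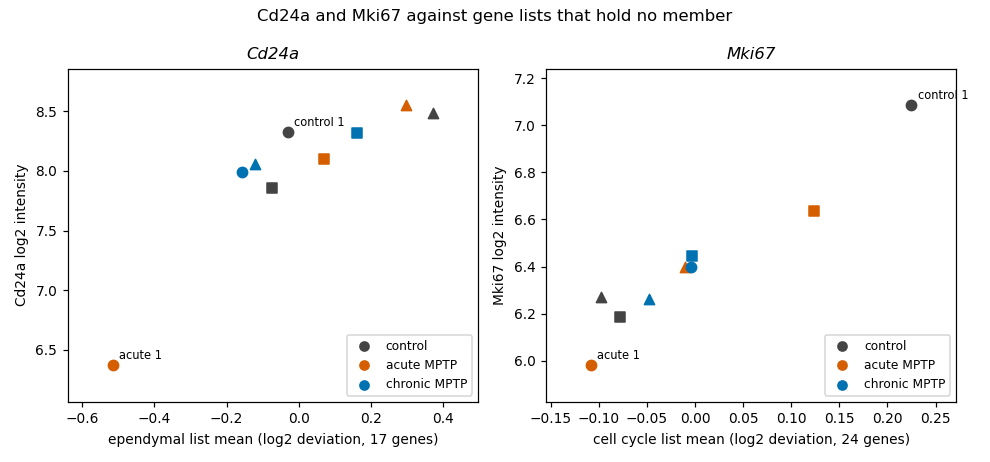
Log2 intensity of Cd24a against the mean of 17 ependymal genes and of Mki67 against the mean of 24 cell cycle genes, 1 point per array, coloured by group (circle, square and triangle are arrays 1, 2 and 3). Acute 1 is lowest in both panels, and control 1 is highest for Mki67 but not for Cd24a.

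The probe sets most like each member were named by the highest r over the 9 arrays among all 16335, as a description. For Cd24a the nearest was Sntn (r = 0.98), which encodes the ciliary tip protein sentan and lay at 5.26 on acute 1 and between 6.56 and 7.25 elsewhere, followed by Sox11 and Dlx1as. For Sox11 they were Dlx1as (0.97), Sntn (0.97) and Cd24a. For Sox2 they were Cfap52 (0.97), a cilium gene, Shroom3 and Spef2, a sperm flagellum and cilium gene of the ependymal list. For Dcx the 8 nearest were BC051019, Haus4, Sfrp1, Cfap20dc, Cdkl4, Sox11, 2610002M06Rik and Cd24a, with r from 0.89 to 0.94. Of these Sfrp1, a secreted modulator of Wnt signalling, had a wide range, from 7.07 on acute 1 to 8.89 on chronic 2. BC051019 and Haus4 varied by little, from 5.82 to 6.01 and from 6.73 to 6.93. Dlx1as ran from 6.79 to 7.22.

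The nearest probe sets of Dlx1 were Gm16287, Sp7 and Plxna3, a semaphorin coreceptor (r = 0.95), those of Dlx2 were Dlg5, Fbln7 and Ist1, and those of Sp8 were Dnah2, an axonemal dynein, Tapbpl and Disp3, all with r between 0.95 and 0.96. Some of these varied by little: Sp7 from 6.36 to 6.44, Gm16287 from 6.95 to 7.22 and Ist1 from 10.15 to 10.37. Plxna3 ran more widely, from 7.09 to 8.06. The nearest of Mki67 were cell cycle genes: Ccna2, cyclin A2 (0.95), Pclaf, a PCNA-binding factor (0.95), and Rrm2, a subunit of ribonucleotide reductase (0.95). Those of Top2a were Mki67 (0.94), Cdca7 (0.94) and Hmgb2 (0.92). Ccna2 lay at 7.42 on control 1 and 6.06 on acute 1, the same highest and lowest arrays as for Mki67 and Top2a. Over lists, the median r of the ependymal genes was 0.82 with Sox2, 0.77 with Cd24a and with Dlx1, and 0.29 with Mki67, while that of the cell cycle genes was 0.59 with Mki67 and -0.014 with Sox2. The choroid plexus genes had a median r of 0.80 with Sox2 and -0.099 with Mki67, those of thalamus and septum 0.76 with Sox2 and -0.26 with Mki67, and the striatal projection neuron genes lay below 0 with every member, from -0.52 (Dlx1) to -0.21 (Dlx2). The median r of all tested probe sets with a member lay between -0.008 and 0.061.

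Other genes expressed in the lineage, not all of them confined to it, were taken as lists. None of their members passed an adjusted p of 0.05 in limma in any comparison. Of 15 tested stem cell and transit-amplifying genes 8 had higher and 7 lower means after acute MPTP, with a median of 0.047, and 8 and 7 after chronic MPTP, with a median of 0.030. Hes5, a Notch effector that keeps progenitors undifferentiated, had the smallest p of that list in both chronic comparisons, at 8.48, 8.60 and 8.54 in controls and 8.26, 8.42 and 8.13 after chronic MPTP. The Hes5 groups did not overlap, and the difference was -0.27 ± 0.095 (adjusted p = 0.876 in limma).

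Of 19 tested neuroblast genes 4 had higher and 15 lower means in acute against control (median -0.075), 7 and 12 in chronic against control (-0.12) and 9 and 10 in chronic against acute (-0.086). In chronic against control 7 of the 19 had an unadjusted p under 0.05, 1 higher and 6 lower, where 5.51% of all probe sets did, and 3 had groups without overlap on the lower side, where 3.67% of all probe sets did, and 1 on the higher side, where 2.88% did. The higher one was Dlx6, a homeobox gene that projection neurons of the striatum also express, at 8.47, 8.96 and 8.48 in controls and 9.17, 9.21 and 9.05 after chronic MPTP, a difference of 0.50 ± 0.13 (adjusted p = 0.876 in limma). The mean of 14 striatal projection neuron genes ran from -0.46 to 0.10 on the control and from 0.17 to 0.32 on the chronic arrays, and its part in the Dlx6 difference was not tested. Stmn2, a microtubule regulator of growing axons, was among the lower ones, at 12.13, 11.38 and 12.04 against 11.26, 11.21 and 10.90, a difference of -0.73 ± 0.19 (adjusted p = 0.876 in limma). Stmn2 is also abundant in cortical neurons, and the mean of the cortical list ran from -0.40 to 0.95 on the control and from -0.67 to -0.26 on the chronic arrays. The 6 lower genes were Stmn1, Stmn2, Elavl4, Fxyd6, Tubb2b and Marcksl1. Over all arrays Stmn1, Stmn2, Tubb2b and Fxyd6 had means of 11.92, 11.56, 10.59 and 10.31, against 8.26 for Dcx. Elavl4 and Marcksl1 lay at 7.90 and 7.31. The cells these signals came from and the part of cortex in these differences were not tested. With 1 array left out the neuroblast median in chronic against control ran from -0.35 to -0.047.

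Of 24 tested cell cycle genes 11 had higher and 13 lower means in acute against control (median -0.012), 7 and 17 in chronic against control (-0.067) and 8 and 16 in chronic against acute (-0.060). Ccnd1, cyclin D1, had the smallest p in chronic against control, with a mean of 8.99 against 9.31, a difference of -0.33 ± 0.12 (adjusted p = 0.876 in limma). Of 17 tested ependymal genes 15 had lower means in acute against control (median -0.14), 14 in chronic against control (-0.099) and 11 in chronic against acute (-0.0091). Over all probe sets 48.4% were lower in acute and 53.2% in chronic against control, and 46.1% were higher in chronic against acute. Several list medians changed sign without 1 array. In acute against control the ependymal median was 0.075 and the neuroblast median 0.017 without acute 1. In chronic against control the cell cycle median was 0.054 without control 1 and the ependymal median 0.043 without control 3.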

How the data were processed

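The deposited values are log2 intensities, 1 per probe set and array; the scale was read from the values (4.27 to 14.43, array medians 6.85 to 6.90). Background correction, normalization and summary are not given in the sources used here. RNA came from a Qiagen RNeasy extraction and biotinylated cDNA from the Ambion WT Expression kit, per the labels' protocols. Values were used as deposited. Depth has no counterpart on arrays, and the number of arrays limits the precision.

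Arrays were grouped by the sample titles. Names of probe sets came from the platform annotation, and 9 of 9 member gene IDs were found under the same symbols in the RefSeq table of GRCm38.p6. Probe sets with 1 symbol and a mean at or above the 25th percentile (5.89) were tested: 16335 of 21780. The probe set with the highest mean stood for its gene. Group means were fitted to all 9 arrays with limma 3.58.1 in R 4.3.3 and moderated by eBayes, two-sided, with Benjamini-Hochberg adjustment at 0.05. The code was tested on simulated data. Permutation tests used Python 3.11.15 and NumPy 2.4.6.

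Replicate numbers pair the samples by the values, not by the labels: deviations from group means correlated in all 9 same-numbered pairs (r from 0.16 to 0.67 across probe sets) and from -0.61 to 0.18 in the 18 others. A fit with that block was an alternative, as were other scalings, filters, covariates and left-out arrays. The members and lists were chosen with earlier results of these data known. Named genes were the members, up to 2 of each list by level or p, the 8 probe sets most like Dcx and 3 most like each other member, and tissue markers.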

Additional observations from a re-analysis of the deposited data

How the results depend on the processing

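Of 531 member differences under alternatives, 456 kept their direction and 75 turned, and 0 passed the threshold, with a smallest adjusted p of 0.515 in limma. Turned values follow on the log2 scale. Under quantile normalization they were Sox11 0.00787 in chronic MPTP against control, and Top2a 0.00997 in chronic against acute MPTP. With array medians set equal, they were Sox11 0.017 in chronic MPTP against control. With the cortex and choroid plexus means as covariates, they were Dcx 0.28, Sox11 0.20, Dlx2 0.30, Sox2 0.14, Mki67 0.31, Top2a 0.19, Cd24a 0.51 in chronic MPTP against control, and Dlx1 0.79, Sp8 0.29, Sox2 0.35, Top2a 0.57 in chronic against acute MPTP, and the member median was 0.20 in chronic MPTP against control and 0.79 in chronic against acute MPTP. Without control 1, acute 1 and acute 2, they were Sox11 0.058, Sox2 0.24, Mki67 0.17, Top2a 0.28, Cd24a 0.38 in acute MPTP against control, and Sox11 0.00466, Mki67 0.14, Top2a 0.067 in chronic MPTP against control, and Sox11 -0.053, Dlx2 -0.051, Mki67 -0.029, Cd24a -0.43 in chronic against acute MPTP. Without control 3 and acute 3, they were Sox11 0.047, Dlx2 0.10, Sox2 0.076, Cd24a 0.031 in chronic MPTP against control, and Dlx1 0.045, Sox2 0.13, Top2a 0.054 in chronic against acute MPTP. With the ependymal mean as a covariate, added after seeing the data, they were Sox2 0.054 in acute MPTP against control, and Sox11 0.11, Dlx2 0.18, Sox2 0.021, Cd24a 0.18 in chronic MPTP against control. The cause of these turns was not tested.

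With the replicate number as a block, no member's call changed; the smallest adjusted p of a member in limma was 0.98 in acute MPTP against control, 0.518 (Dlx1, -0.71) in chronic MPTP against control and 0.515 (Sox11, 0.24) in chronic against acute MPTP. Leaving out 1 array at a time moved the member median from -0.38 to 0.012, from -0.28 to -0.036 and from -0.18 to 0.22 in the same 3 comparisons, and the number of probe sets past the threshold from 0 to 1, 0 to 2 and 1 to 5. The number with an unadjusted p under 0.05 in limma was 139, 900 and 837 with all arrays. It moved from 57 to 405, 465 to 1286 and 389 to 1381 with 1 array left out. Under the other alternatives it ran from 60 to 687, 201 to 2128 and 305 to 2278. In acute MPTP against control single members turned within these ranges: Dlx2 -0.63 to 0.11, Sp8 -0.29 to 0.013, Sox2 -0.20 to 0.11, Mki67 -0.34 to 0.11, Top2a -0.28 to 0.10, Cd24a -0.99 to 0.11. In chronic MPTP against control single members turned within these ranges: Sox11 -0.10 to 0.068, Dlx2 -0.54 to 0.24, Sox2 -0.19 to 0.076, Mki67 -0.31 to 0.14, Top2a -0.32 to 0.067, Cd24a -0.28 to 0.031. In chronic against acute MPTP single members turned within these ranges: Sox11 -0.000959 to 0.38, Dlx1 -0.65 to 0.22, Dlx2 -0.19 to 0.58, Sp8 -0.46 to 0.11, Sox2 -0.18 to 0.13, Mki67 -0.15 to 0.18, Top2a -0.27 to 0.11, Cd24a -0.21 to 0.89. The number of probe sets past the threshold was 1 in acute MPTP against control with only those 2 groups in the fit. In chronic against acute MPTP it was 2, and 1 with no filter, with only the 2 groups or with the ependymal covariate, and 0 with the cortex and choroid plexus covariates or without either set of arrays. Sp8, Mki67 and Top2a were not tested under the filter at the 50th percentile. With 3 arrays per group, the 95% interval of Cd24a in acute MPTP against control, -1.60 to 0.51, shows how wide a difference could not be resolved.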
